A study of Mus musculus with 6 samples.

Results

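The genes described here are 36 genes of the pancreatic acinar cell. Most encode digestive enzymes, their relatives or other secreted and granule proteins, 2 encode proteins of the endoplasmic reticulum and 4 encode transcription factors of the acinar programme. They were measured by bulk RNA sequencing of lymphocytes sorted from the mouse small intestine. All 36 were among the 25075 gene symbols of the count table. They were chosen by name from a list of acinar genes because earlier results of these data had shown acinar enzymes to be low in one group of libraries, so the difference between the groups is given below as a description, without a test.

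The sorted cells were labelled ILC3s (innate lymphoid cells of group 3, lymphocytes that reside in tissue and are known for making IL-22), and were gated as lineage-negative, CD90.2-positive and KLRG1-negative. Each library came from 2000 cells and 2 ng of RNA, prepared with Smart-seq2, which copies whole transcripts from little RNA. There were 3 libraries labelled Batf-deficient, with the genotype Batf fl/fl PLZF-Cre+, and 3 labelled control, with the genotype Batf fl/fl PLZF-Cre-. All mice carried the floxed Batf gene on a b6 background. Batf encodes a transcription factor of the AP-1 family, and PLZF-Cre removes it in cells that have at some time expressed PLZF, the factor of innate lymphoid precursors. ILC3s of the lymphoid tissue inducer kind are known to arise largely without PLZF. The labels do not give age, sex, litter or batch, and the series design calls the 3 libraries of a group biological replicates.

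Libraries labelled Batf-deficient held 8228513 to 13615895 counts and those labelled control 9080012 to 17334207. Levels are given in CPM, counts relative to the library size after TMM scaling (a method that centres most genes), and 3 counts in a library corresponded to 0.155 to 0.425 CPM. The targeted gene Batf stood at 38.2, 41.2 and 41.2 CPM in libraries labelled Batf-deficient, against 15.1, 15.3 and 18.9 CPM in those labelled control (log2 fold change 1.29, SE 0.16, adjusted p = 1.70e-05, edgeR quasi-likelihood test). It was thus higher where the label says it was removed. Scaled to a panel of 17 lymphocyte genes in place of TMM it was lower, at -1.28 on the log2 scale. Reads outside the removed exons would still be counted, and which exons are floxed is not stated in the labels. The groups are therefore called by their labels throughout. The 11 ILC3 markers listed made up 0.946 to 1.01% of the counts of the libraries labelled Batf-deficient and 0.154 to 0.175% of those labelled control.

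Acinar cells are the enzyme-making cells of the exocrine pancreas. They make zymogens (inactive precursors of proteases) and active lipases, amylase and ribonuclease on a large rough endoplasmic reticulum, pack them into zymogen granules and release them through the pancreatic duct into the duodenum when cholecystokinin or nerves signal a meal. The programme is driven by PTF1, a complex of the basic helix-loop-helix factor PTF1A, a partner E-protein and RBPJL, together with NR5A2 and with BHLHA15 (MIST1), which shapes the secretory apparatus.

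Together the 36 genes took 0.00175, 0.00174 and 0.00196% of the counts of the libraries labelled Batf-deficient, against 12.4, 12.1 and 12.4% of those labelled control. The means were 0.00181 ± 0.000127% in libraries labelled Batf-deficient and 12.3 ± 0.213% in libraries labelled control (SD, n = 3 each). In counts, 147, 143 and 267 reads of these genes were seen in the libraries labelled Batf-deficient, 557 in all, against 1128178, 1857726 and 2156421 in those labelled control. The summed level per scaled library was 5203-fold lower in the libraries labelled Batf-deficient (95% counting interval 4789 to 5664, which covers counting error only). In bulk RNA, fewer cells of a type and less RNA per cell cannot be told apart, and the counts are reads without molecular identifiers.

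**Figure D1:**
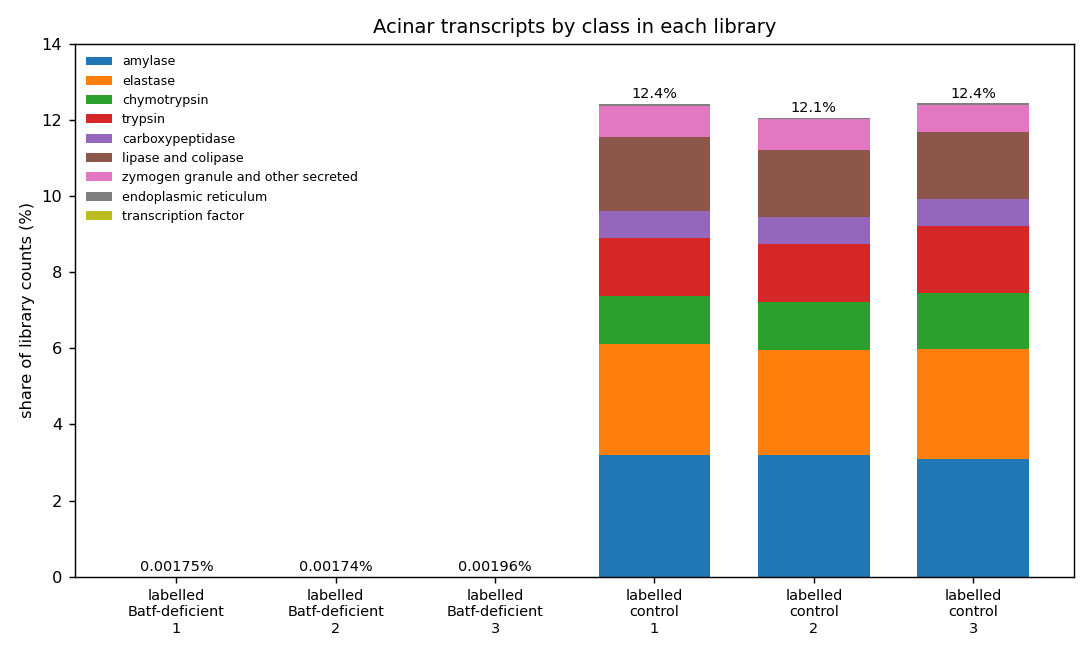
Share of all counts (%) taken by each class of acinar genes, as stacked bars, in each of the 3 libraries labelled Batf-deficient and the 3 labelled control. The control bars reach 12.1 to 12.4%, and the bars of the libraries labelled Batf-deficient, at 0.00174 to 0.00196%, are too low to be seen.

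Every class was low in all 3 libraries labelled Batf-deficient, and the classes kept nearly the same proportions in the 3 control libraries. In those, amylases made up 25.7 ± 0.743% of the acinar counts, elastases 23.2 ± 0.391%, lipases with colipase 14.7 ± 0.761%, trypsins 13.0 ± 0.948% and chymotrypsins 10.8 ± 1.01% (SD, n = 3). Other secreted proteins took 6.46 ± 0.561%, carboxypeptidases 5.80 ± 0.0676%, the endoplasmic reticulum proteins 0.308 ± 0.0130% and the transcription factors 0.0269 ± 0.00236%. Of the 36 genes, 35 had counts in all 3 control libraries. The exception, Ptf1a, was the only one of the 36 whose libraries overlapped between the groups and the only one that the filter on low counts removed. Of all 15261 genes that passed this filter, 36.5% had every library labelled Batf-deficient below every control library, and 34.1% were called lower by edgeR at an adjusted p of 0.05. All 35 acinar genes that passed were called lower, a count that the choice of the genes fixed.

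The amylases cut starch into short sugars. They lie in a cluster on chromosome 3 between 113147656 and 113606699 (mm10, GENCODE M21). Amy2a4 (chromosome 3, 113279843 to 113291449), a pancreatic amylase, had 0.276, 0.425 and 0 CPM (2, 3 and 0 counts) in the libraries labelled Batf-deficient, against 24322, 25043 and 24135 CPM in those labelled control. Over the group it was 131124-fold lower (95% counting interval 56188 to 403837). Amy2a1 was at 0 in the libraries labelled Batf-deficient, against 2431, 2406 and 3281 CPM in the control libraries, and Amy2b, which the annotation calls an unprocessed pseudogene, was at 0 in libraries labelled Batf-deficient against 345, 399 and 366 CPM in libraries labelled control. With a floor of 3 counts over the group these were at least 24677-fold lower and at least 3330.2-fold lower. Amy2a5 had 0, 0 and 0.723 CPM (0, 0 and 9 counts) in libraries labelled Batf-deficient, all in replicate 3, against 103, 167 and 58.1 CPM in the control libraries. Its control values spread more than those of most members, with a coefficient of variation (CV) of 50.1%. Amy1, the salivary and liver amylase, had 0, 0 and 0.0803 CPM (0, 0 and 1 counts) in libraries labelled Batf-deficient, against 5.45, 4.23 and 5.13 CPM in libraries labelled control.

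The amylase copies share much of their sequence. Of all the 50-base words in the Amy2a4 transcript, 100% also occur in another gene, among them Amy2a2 and Amy2a3. Those 2 genes were not among the 25075 gene symbols counted. For Amy2a1, Amy2a5 and Amy2b the shares are 94.9%, 57.2% and 40.2%. For Amy1 the share is 2.69%, so its low level is measured mostly on sequence of its own. No source used here states how the counting dealt with reads that fit several genes, so the summed level is better described than that of each copy. The 5 members together took 3.19, 3.19 and 3.10% of the control counts and had 2, 3 and 10 counts in the libraries labelled Batf-deficient.

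Elastases cut proteins beside small residues. Cela1 had 2.21, 1.70 and 2.49 CPM across the libraries labelled Batf-deficient (16, 12 and 31 counts), against 9111, 8600.0 and 9275 CPM in those labelled control, and was 4075-fold lower (95% counting interval 3159 to 5353). Cela2a had 0.138, 0 and 0.161 CPM (1, 0 and 2 counts) in libraries labelled Batf-deficient, against 13370.5, 13180.5 and 13719 CPM in libraries labelled control, and was 119847-fold lower (41009 to 581153). Cela2a had the higher control level per kb of exon (7791 ± 159 against 3901 ± 153 CPM per kb), and left 3 counts where Cela1 left 59. Cela3b had 0, 0.142 and 0.0803 CPM (0, 1 and 1 counts) in libraries labelled Batf-deficient, against 2626, 2522 and 2819.9 CPM in the control libraries, and shares 33.2% of its 50-base words with Cela3a. Cela1 shares none.

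Chymotrypsins cut beside large hydrophobic residues, and their genes are spread over chromosomes 4 and 8. Ctrb1, chymotrypsinogen B, had 0, 0.142 and 0.0803 CPM (0, 1 and 1 counts) in the libraries labelled Batf-deficient, against 7296, 7614 and 9576 CPM in those labelled control, and was 111549-fold lower (95% counting interval 30879.8 to 921101). Ctrl, a chymotrypsin-like protease, kept 0, 0.425 and 0.562 CPM (0, 3 and 7 counts) in libraries labelled Batf-deficient against 3331, 3404 and 3739.9 CPM in libraries labelled control. Ctrc, chymotrypsin C, which in humans helps to degrade trypsinogen, was at 0 in libraries labelled Batf-deficient against 24.4, 23.5 and 29.8 CPM in libraries labelled control, at least 234-fold lower. Its gene model spans that of Cela2a, and 25.6% of the 50-base words of Cela2a occur in a Ctrc transcript, so the 2 genes share sequence in the annotation.

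Trypsins activate the other zymogens in the gut. Their genes lie on chromosome 6 between 41302269 and 41525079. Try4 was at 0 in the libraries labelled Batf-deficient, against 4482, 4650.3 and 5849 CPM in those labelled control, at least 45471-fold lower. Prss2, a trypsinogen whose control levels per kb overlap those of Try4, kept 0.968, 1.70 and 1.20 CPM (7, 12 and 15 counts) in libraries labelled Batf-deficient, against 4909, 5218 and 6145 CPM in libraries labelled control, and was 4347-fold lower (95% counting interval 3111 to 6277). Only 7.83% of the 50-base words of Prss2 occur in another gene, against 65.6% of those of Try4. Try5 had 0, 0 and 0.321 CPM (0, 0 and 4 counts) in libraries labelled Batf-deficient against 3499.9, 3364 and 3560.2 CPM in libraries labelled control. Prss1 and Prss3 were at 0 in libraries labelled Batf-deficient, against 8.27, 10.2 and 13.8 CPM (Prss1) and 145, 173 and 165 CPM (Prss3) in libraries labelled control, and share 54.9% and 66.1% of their words with other trypsin genes of the cluster.

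Carboxypeptidases trim residues from the free end of peptides. Cpa1 had 0, 0.142 and 0 CPM (0, 1 and 0 counts) in the libraries labelled Batf-deficient, against 3788, 3824 and 3948 CPM in those labelled control. Cpb1 had 0.276, 0 and 0 CPM (2, 0 and 0 counts) in libraries labelled Batf-deficient, against 2300.1, 2405 and 2513 CPM in libraries labelled control. Both were steady in the control libraries, with CVs of 2.17% and 4.42%, and neither shares a 50-base word with another gene.

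The lipases digest fat, and colipase (Clps) holds pancreatic lipase on the fat droplet. Pnlip, pancreatic lipase, had 0, 0.142 and 0.0803 CPM (0, 1 and 1 counts) in the libraries labelled Batf-deficient, against 7906, 7642 and 7254 CPM in those labelled control, and was 100882-fold lower (95% counting interval 27927 to 833018). Clps kept 3.73, 2.27 and 3.29 CPM (27, 16 and 41 counts) in libraries labelled Batf-deficient, against 1767, 1857 and 2170.4 CPM in libraries labelled control, and was 626-fold lower (505 to 784). The cofactor thus left 84 counts where its enzyme left 2, while their control levels per kb of exon overlapped. Per kb of the longest transcript the control mean was 5111 CPM for Pnlip and 3161 CPM for Clps. Cel, bile salt-dependent lipase, had 0, 0 and 0.0803 CPM (0, 0 and 1 counts) in libraries labelled Batf-deficient against 5297, 4513 and 4650.3 CPM in libraries labelled control. Pnliprp1, a lipase-related protein, was at 0 in libraries labelled Batf-deficient against 1156, 1140.5 and 1226 CPM in libraries labelled control, at least 10508-fold lower. Pnliprp2, a lipase of phospholipids and galactolipids, kept 1.52, 0.425 and 1.12 CPM (11, 3 and 14 counts) in libraries labelled Batf-deficient against 333, 319.6 and 344 CPM in libraries labelled control, and was 318-fold lower (219.8 to 479). Pnlip, Pnliprp1 and Pnliprp2 are neighbours on chromosome 19, in that order, between 58652498 and 58777534, and share no 50-base word with other genes, so the difference between them in remaining counts lies within a single locus.

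Among the other secreted and granule proteins, Klk1, a tissue kallikrein also made in salivary gland and kidney, kept the most counts of all members. It had 6.22, 8.79 and 6.42 CPM across the libraries labelled Batf-deficient (45, 62 and 80 counts), against 357, 349.5 and 429 CPM in those labelled control, and was 54.9-fold lower (95% counting interval 47.5 to 63.7). Of its 50-base words 28.4% occur in other kallikrein genes such as Klk1b5. Rnase1, pancreatic ribonuclease, kept 2.35, 2.69 and 2.81 CPM (17, 19 and 35 counts) in libraries labelled Batf-deficient, against 5227, 5109 and 4328 CPM in libraries labelled control, and was 1815-fold lower (1439 to 2324). Reg1, a secreted lectin, had 0.138, 0.567 and 0.401 CPM (1, 4 and 5 counts) in libraries labelled Batf-deficient against 588, 687 and 591 CPM in libraries labelled control. Sycn, syncollin of the granule membrane, had 0, 0 and 0.0803 CPM (0, 0 and 1 counts) in libraries labelled Batf-deficient against 476, 541 and 641 CPM in libraries labelled control. Gp2, the main glycoprotein of the granule membrane and also a product of intestinal M cells, was at 0 in libraries labelled Batf-deficient against 364, 383 and 359 CPM in libraries labelled control, at least 3289.7-fold lower. Cuzd1, a granule protein, and Serpini2, a pancreatic protease inhibitor, were at 0 too in libraries labelled Batf-deficient, against 135, 136 and 128 CPM (Cuzd1) and 16.7, 21.7 and 15.2 CPM (Serpini2) in libraries labelled control.

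The endoplasmic reticulum proteins were Pdia2, a pancreatic protein disulfide isomerase, and Erp27, a redox-inactive member of the same family. Pdia2 had 0.276, 0 and 0.161 CPM (2, 0 and 2 counts) in the libraries labelled Batf-deficient, against 296, 304 and 281 CPM in those labelled control. Erp27 had 0.138, 0 and 0 CPM (1, 0 and 0 counts) in libraries labelled Batf-deficient against 35.8, 33.1 and 46.3 CPM in libraries labelled control.

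The transcription factors were among the scarcest members, and as a class they had the smallest fold difference. Bhlha15 (MIST1) had 1.52, 0.142 and 1.04 CPM across the libraries labelled Batf-deficient (11, 1 and 13 counts), against 8.46, 13.0 and 3.78 CPM in those labelled control, and was 8.81-fold lower (95% counting interval 5.88 to 13.8). It is also known in plasma cells and other secretory cells. Nr5a2, a nuclear receptor that is also expressed in intestinal crypts, had 0.415, 0.283 and 0.241 CPM (3, 2 and 3 counts) in libraries labelled Batf-deficient against 12.8, 8.62 and 12.8 CPM in libraries labelled control, and was 37.6-fold lower (19.0 to 87.6). Rbpjl, the acinar subunit of PTF1, had 0.138, 0.283 and 0 CPM (1, 2 and 0 counts) in libraries labelled Batf-deficient against 9.69, 4.85 and 11.6 CPM in libraries labelled control, and was 77.4-fold lower (26.3 to 377). Ptf1a, its helix-loop-helix subunit, was at 0 in the libraries labelled Batf-deficient and had 4, 0 and 20 counts in those labelled control, at least 4.51-fold lower against a floor of 3 counts. Summed, the 4 factors were 21.3-fold lower (15.3 to 30.6), where the amylases were 49511-fold lower (30018 to 88462).

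Per kb of exon, the scale on which levels of different genes can be set side by side, the acinar genes covered more than 4 orders of magnitude in the control libraries. Ctrb1 was highest, with 9296 ± 1407 CPM per kb (SD, n = 3), followed by Cela2a with 7791 ± 159. Prss2 with 6655 ± 789, Amy2a4 with 6591 ± 129 and Try4 with 6234 ± 931 came next and changed places between libraries, so their order is within their spread. Rnase1 followed with 4928 ± 492, then Cela1 with 3901 ± 153 and Try5 with 3852 ± 111, whose values overlap, then Pnlip with 3463 ± 149 and Clps with 3161 ± 346, whose values overlap too. At the low end were Bhlha15 with 2.41 ± 1.32, Nr5a2 with 1.93 ± 0.408, Rbpjl with 1.52 ± 0.607, Amy1 with 1.43 ± 0.185 and Ptf1a with 0.312 ± 0.348. The order of the 4 genes above Ptf1a differed between libraries. The places of copies that share sequence, such as Amy2a4 and Try4, can depend on how shared reads were counted. The order also depends on the length used. With the longest transcript in place of all exons, Cela2a was highest at 12545 CPM per kb, above Ctrb1 at 9296, and Cela1 was next at 8118. By that length 9 of the 10 highest genes were again among the 10 highest, and with counts not divided by length 8 of the 10.

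**Figure D2:**
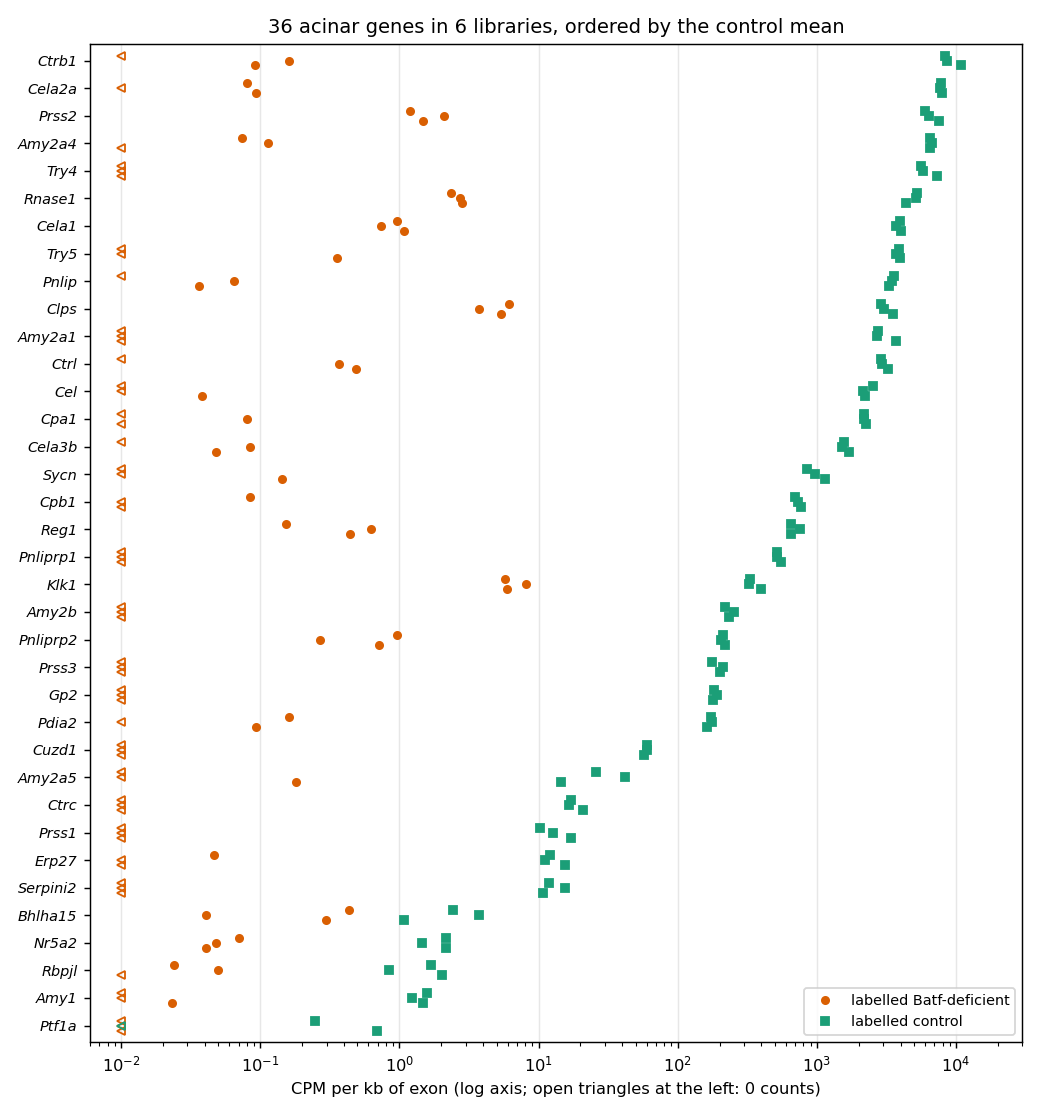
CPM per kb of exon (log axis) of each of the 36 acinar genes, 1 row per gene in the order of the control mean, with circles for the 3 libraries labelled Batf-deficient, squares for the 3 labelled control and open triangles at the left edge for 0 counts. The squares fall from the mean of 9296 CPM per kb of Ctrb1 to the 0.312 of Ptf1a, while no circle is above the 8.16 CPM per kb of Klk1.

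The acinar pattern was much alike in the 3 control libraries. Of the 36 genes, 12 held the same rank in all 3, and no gene moved by more than 3 places. The log2 levels of the 36 genes had Pearson correlations of 0.991 to 0.997 and Spearman correlations of 0.994 to 0.995 between pairs of control libraries, a description over genes that differ widely in level. The median difference between 2 control libraries was 0.0678 on the log2 scale for replicates 1 and 2, 0.148 for replicates 1 and 3, and 0.220 for replicates 2 and 3. The median CV of the members was 9.59%, 19 of 36 were under 10%, and 5 were over 25%. These 5 were Ptf1a (111%), Bhlha15 (54.8%), Amy2a5 (50.1%), Rbpjl (39.9%) and Prss1 (25.9%). Members above 1000 CPM had a median CV of 5.69% (17 genes), against 5.96% for the 59 other tested genes at that level. Between 100 and 1000 CPM the medians were 8.16% for 10 members and 8.77% for 1291 other genes. At lower levels the members were the more variable, with 18.9% for 5 members against 15.3% for 7560 other genes between 10 and 100 CPM, and 39.9% for 3 members against 38.5% for 5866 other genes between 1 and 10 CPM.

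The acinar genes weighed heavily on the control libraries. Ranked by counts, not per length, 50 genes led the control mean, and of these 16 were members. Members made up 41.7, 39.1 and 41.7% of the counts of the 50 highest genes of each control library. Of the 100 highest genes of each library, 0 were members in the libraries labelled Batf-deficient and 17 in those labelled control. The median member had 587 CPM in the control libraries, against 14.3 CPM for the median gene tested.

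The start regions of the acinar genes hold letters that the regulators named above are known to bind. PTF1 is known to bind a pair of sequences, an E-box (CANNTG) and a TC-box (TTTCCC), and NR5A2 binds CAAGGNCA. The windows of RefSeq (GRCm38.p6), from 250 bases before to 50 after a gene start, gave 34 promoters for 32 members. Clps, Ctrc, Erp27 and Try5 were not among them. Both strands were searched, and the motifs may overlap. An E-box followed by a TC-box on the same strand, with 3 to 20 bases between them, was in 5 of the 34 promoters (14.7%), against 2.16% of all 32851 mouse promoters. CAAGGNCA was in 9 of 34 (26.5%), against 6.71% of all, and TATAAA in 14 of 34 (41.2%), against 13.6%. CANNTG alone was in 29 of 34 (85.3%), against 72.3%. Copies of a gene share promoter sequence, so the 34 are not independent, and a match describes letters, not binding.

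The 5 promoters with the pair of boxes are shown because they belong to enzymes of different classes. Capitals mark the pair (CANNTG with TTTCCC, or GGGAAA with CANNTG where it lies on the other strand), and TATAAA and CAAGGNCA where present. They are written 5′ to 3′ on the strand of the gene. Cela1 is on the minus strand at chr15:100687871-100688170, Ctrb1 on the minus strand at chr8:111690961-111691260, Prss1 on the plus strand at chr6:41458680-41458979, Cel on the minus strand at chr2:28563354-28563653 and Cpa1 on the plus strand at chr6:30638968-30639267.
Cela1: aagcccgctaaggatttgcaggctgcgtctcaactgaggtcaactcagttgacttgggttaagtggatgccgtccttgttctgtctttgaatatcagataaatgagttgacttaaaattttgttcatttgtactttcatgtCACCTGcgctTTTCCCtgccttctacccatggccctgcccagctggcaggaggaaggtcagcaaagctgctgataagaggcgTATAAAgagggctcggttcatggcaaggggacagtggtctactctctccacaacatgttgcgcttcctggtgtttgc
Ctrb1: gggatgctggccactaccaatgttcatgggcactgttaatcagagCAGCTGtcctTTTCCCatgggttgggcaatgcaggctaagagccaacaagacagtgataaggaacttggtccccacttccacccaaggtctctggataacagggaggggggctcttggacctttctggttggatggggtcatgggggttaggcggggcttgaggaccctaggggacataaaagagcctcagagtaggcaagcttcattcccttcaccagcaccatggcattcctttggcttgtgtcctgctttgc
Prss1: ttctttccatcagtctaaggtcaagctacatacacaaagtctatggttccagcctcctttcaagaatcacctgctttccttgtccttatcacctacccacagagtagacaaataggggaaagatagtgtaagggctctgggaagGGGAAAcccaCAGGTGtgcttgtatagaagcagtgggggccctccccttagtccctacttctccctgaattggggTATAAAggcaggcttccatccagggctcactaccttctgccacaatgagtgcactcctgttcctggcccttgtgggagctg
Cel: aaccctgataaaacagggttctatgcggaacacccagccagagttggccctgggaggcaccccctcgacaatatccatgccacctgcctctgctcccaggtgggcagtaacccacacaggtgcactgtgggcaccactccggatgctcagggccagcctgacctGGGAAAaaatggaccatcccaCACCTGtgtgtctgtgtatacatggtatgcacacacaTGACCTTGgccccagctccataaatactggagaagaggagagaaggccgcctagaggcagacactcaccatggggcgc
Cpa1: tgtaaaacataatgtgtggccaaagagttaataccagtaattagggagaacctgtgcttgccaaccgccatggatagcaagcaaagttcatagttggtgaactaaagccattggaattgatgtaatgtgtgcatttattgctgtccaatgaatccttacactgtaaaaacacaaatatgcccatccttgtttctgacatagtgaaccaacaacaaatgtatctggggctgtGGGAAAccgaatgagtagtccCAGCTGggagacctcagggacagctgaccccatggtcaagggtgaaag

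The spacing between the boxes took only 2 values among these 5. It was 4 bases in Cela1, Ctrb1 and Prss1 and 15 bases in Cel and Cpa1. Of all 32851 promoters, 0.0944% held the pair at a spacing of 4 and 0.164% at a spacing of 15. The spacing was looked at after the sequences were seen. The first base of the pair lay 109 bases before the start in Cela1, 205 in Ctrb1, 106 in Prss1, 86 in Cel and 19 in Cpa1. The control levels of these 5 genes per kb were 3901 ± 153, 9296 ± 1407, 13.4 ± 3.47, 2291 ± 199 and 2202 ± 47.8 CPM, so genes with the pair stood both near the top and near the bottom of the order. The high trypsin Prss2 and elastase Cela2a did not hold the pair in this window.

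The windows of a pair of amylase copies are shown because the copies share sequence around their starts. Amy2a5 is on the minus strand at chr3:113258650-113258949 and Amy2a4 on the minus strand at chr3:113291400-113291699. Capitals mark TATAAA, which the Amy2a5 window holds 30 bases before the RefSeq start and the Amy2a4 window does not hold.
Amy2a5: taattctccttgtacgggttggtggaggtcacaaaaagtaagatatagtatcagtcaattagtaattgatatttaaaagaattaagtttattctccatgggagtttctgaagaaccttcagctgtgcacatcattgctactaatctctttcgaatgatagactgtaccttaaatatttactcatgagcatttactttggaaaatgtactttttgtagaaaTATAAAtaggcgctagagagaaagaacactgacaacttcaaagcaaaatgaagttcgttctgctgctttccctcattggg
Amy2a4: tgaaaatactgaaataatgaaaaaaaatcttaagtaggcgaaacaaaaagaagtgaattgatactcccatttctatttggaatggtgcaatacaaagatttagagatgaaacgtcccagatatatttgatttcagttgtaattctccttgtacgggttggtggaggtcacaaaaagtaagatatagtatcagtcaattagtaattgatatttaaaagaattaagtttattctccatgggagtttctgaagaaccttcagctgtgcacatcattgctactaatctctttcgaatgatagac

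The last 162 bases of the Amy2a4 window (139 to 300) are the same as the first 162 of the Amy2a5 window. The RefSeq starts of the copies therefore stand at different places in the same sequence. GENCODE M21 instead starts Amy2a5 at 113258837, upstream of the RefSeq start and inside the window. The difference in start, and in TATAAA, thus depends on the annotation used. Their control levels were 6591 ± 129 CPM per kb for Amy2a4 and 27.5 ± 13.8 for Amy2a5. Of their 50-base words, 100% and 57.2% also occur in other genes, so these levels can depend on how shared reads were counted. They are not a comparison of the start regions.

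The 557 reads left in the libraries labelled Batf-deficient did not follow the control pattern. Of the 36 genes, 11 had no count in any of these libraries, 14 had 1 to 5 counts in all, and 11 had 6 or more. Only 9 had a count in every one of the 3. Klk1, Clps, Rnase1 and Cela1 together held 401 of the 557 counts (72.0%), against 14.9% of the acinar counts of the control libraries.

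If each member had kept the same fraction of its control counts, the 557 reads would fall in the control proportions. Klk1 had 187 counts (95% Poisson interval 161 to 216), where that would give 1.97. Clps had 84 (67.0 to 104) where it would give 10.1, and Rnase1 71 (55.5 to 89.6) where it would give 24.8. Pnliprp2 had 28 (18.6 to 40.5) where it would give 1.71, and Bhlha15 25 (16.2 to 36.9) where it would give 0.0424. Amy2a5 had 9 (4.12 to 17.1) where it would give 0.556. These genes held more of the remaining reads than of the control reads.

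On the other side stood the most abundant enzymes. Amy2a4 had 5 counts (1.62 to 11.7), where the control proportions would give 126. Cela2a had 3 (0.619 to 8.77) where they would give 69.1, Ctrb1 2 (0.242 to 7.22) where they would give 42.9, and Pnlip 2 (0.242 to 7.22) where they would give 38.8. Try4 had 0 (0 to 3.69) where they would give 26.2. Cela1 with 59 (44.9 to 76.1) and Prss2 with 34 (23.5 to 47.5) were near what the proportions give, 46.2 and 28.4. The intervals cover counting error only. The proportions share out all 557 reads, so the 187 reads of Klk1 raise the counts expected of every other member. Near and below are thus relative to this sum, which was not recomputed without Klk1.

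**Figure D3:**
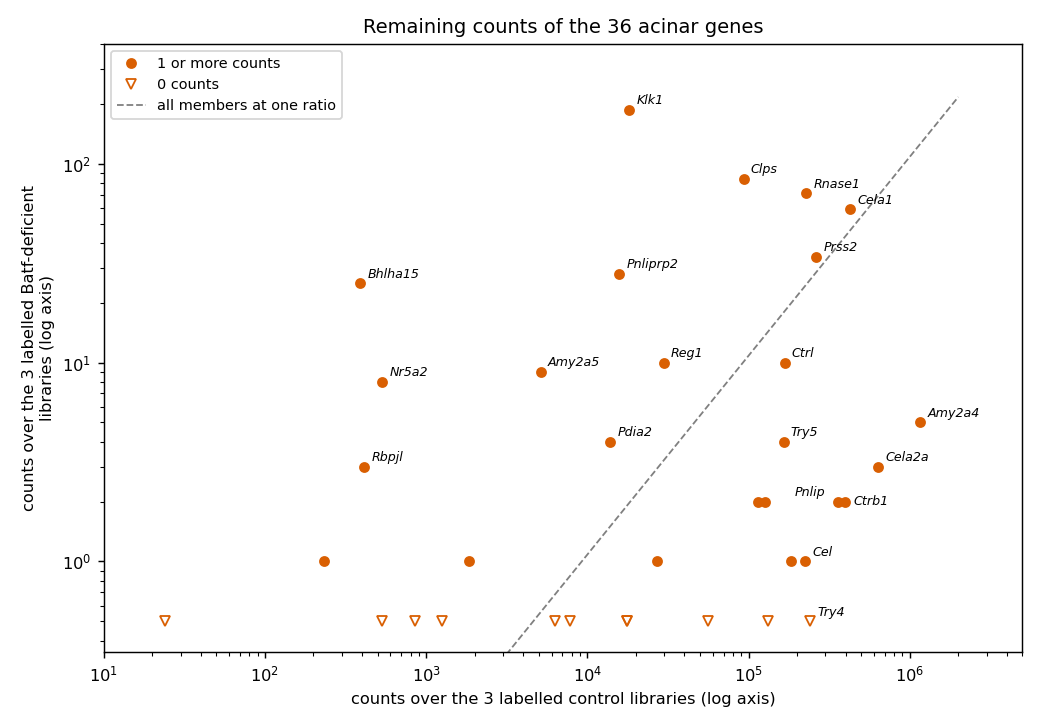
Counts of each acinar gene summed over the 3 libraries labelled Batf-deficient (vertical, log axis, open triangles for 0) against counts summed over the 3 labelled control (horizontal, log axis). The dashed line is where all members would lie at a single ratio, and Klk1 (187 counts), Clps (84), Pnliprp2 (28) and Bhlha15 (25) lie above it, while Amy2a4 (5), Cela2a (3) and Try4 (0) lie below it.

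By class, the other secreted proteins held 49.2 ± 8.95% of the acinar counts of the libraries labelled Batf-deficient and 6.46 ± 0.561% of those labelled control (SD, n = 3 each). Of the 269 counts of this class of 7 genes in the libraries labelled Batf-deficient, Klk1 had 187 and Rnase1 71, while Gp2, Cuzd1 and Serpini2 had 0. Amylases held 2.40 ± 1.22% in libraries labelled Batf-deficient and 25.7 ± 0.743% in libraries labelled control. The transcription factors held 6.56 ± 3.39% in libraries labelled Batf-deficient and 0.0269 ± 0.00236% in libraries labelled control. The median log2 fold change of the 35 members tested was -13.16 as fitted, and -11.68 (3289.7-fold lower) with the 10 tested members that had no count placed at their floor, against 0.02 for all genes tested.

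Further genes of the acinar cell and its surroundings, drawn up with earlier results known, were read from the same fit of all genes (edgeR quasi-likelihood test, two-sided, Benjamini-Hochberg adjustment over 15261 genes). For each list, the share of all tested genes called lower, 34.1%, and called higher, 30.2%, is the background. Of 15 further acinar genes, 14 were tested and all 14 were lower, with a median log2 fold change of -8.25 when genes at 0 are placed at their floor. The list summed to 0.00741 to 0.00933% of the counts of the libraries labelled Batf-deficient and 0.671 to 0.727% of those labelled control. Most of the sum in the libraries labelled Batf-deficient was Zg16, with 618, 609 and 1247 counts. Zg16 thus left 2474 counts there, where all members together left 557. Which cells these Zg16 reads came from was not tested, so they cannot be read as acinar RNA. It averaged 90.6 ± 8.23 CPM in these libraries and 1841 ± 185 CPM in those labelled control. Its log2 fold change was -4.34 (adjusted p = 3.37e-11, edgeR). Try10, Gm5771 and Gm10334 in this list share sequence with member trypsins. For example, 65.1% of the 50-base words of Prss3 occur in Gm10334, so these genes are not measured apart from the members. Pla2g1b, pancreatic phospholipase A2, averaged 0.0461 ± 0.0798 CPM (1, 0 and 0 counts) in libraries labelled Batf-deficient against 184 ± 21.6 CPM in libraries labelled control, 5033-fold lower (903 to 198820.0), with an adjusted p of 3.25e-11 by edgeR, and 2210010C04Rik averaged 0.0268 ± 0.0463 CPM (0, 0 and 1 counts) in libraries labelled Batf-deficient against 2996 ± 163 CPM in libraries labelled control (adjusted p = 3.72e-13, edgeR). Spink1, the trypsin inhibitor of the granule, averaged 1.21 ± 0.454 CPM (5, 10 and 19 counts) in libraries labelled Batf-deficient, against 104 ± 25.9 CPM in libraries labelled control.

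Of 13 regulators of pancreas that are not acinar alone, 12 were tested, 8 were lower, 2 higher and 2 did not pass. Gata4, a zinc finger factor of foregut organs, averaged 0.862 ± 0.398 CPM in the libraries labelled Batf-deficient and 55.8 ± 3.13 CPM in those labelled control (log2 fold change -6.11, SE 0.26, adjusted p = 1.46e-09, edgeR). Hnf4a, a nuclear receptor of gut, liver and pancreas, averaged 4.72 ± 0.550 CPM in libraries labelled Batf-deficient and 196 ± 18.1 CPM in libraries labelled control (log2 fold change -5.39, SE 0.15, adjusted p = 4.07e-11, edgeR). Pdx1, the homeobox factor of pancreas and duodenum, was at 0 in the libraries labelled Batf-deficient and had 36, 59 and 30 counts in those labelled control. Rbpj, the Notch-pathway factor that RBPJL resembles, averaged 215 ± 17.0 CPM in libraries labelled Batf-deficient and 41.4 ± 7.50 CPM in libraries labelled control (log2 fold change 2.38, SE 0.14, adjusted p = 2.31e-08, edgeR), and was at -0.20 with scaling to the lymphocyte panel. Tcf12, an E-protein, was the other one that was higher, and was at -1.97 with the panel. Xbp1, which drives the secretory endoplasmic reticulum, averaged 364 ± 6.08 CPM in libraries labelled Batf-deficient and 345 ± 8.53 CPM in libraries labelled control (adjusted p = 0.442, edgeR).

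Of 14 genes for the release of zymogen granules and its triggers, 10 were tested, 7 were lower and 3 did not pass. Cckar, the cholecystokinin receptor of mouse acinar cells, averaged 0.0945 ± 0.164 CPM (0, 2 and 0 counts) in the libraries labelled Batf-deficient, against 9.80 ± 1.32 CPM in those labelled control, 134-fold lower (37.0 to 1113), with an adjusted p of 3.84e-06 by edgeR. Sct, the secretin made by duodenal endocrine cells, averaged 0.690 ± 0.622 CPM in libraries labelled Batf-deficient and 35.7 ± 7.41 CPM in libraries labelled control (log2 fold change -5.48, SE 0.41, adjusted p = 2.07e-07, edgeR). Stx3, a syntaxin of apical membranes, averaged 4.60 ± 0.470 CPM in libraries labelled Batf-deficient and 65.0 ± 11.1 CPM in libraries labelled control (log2 fold change -3.80, SE 0.19, adjusted p = 5.36e-09, edgeR), and Vipr1, a receptor for vasoactive intestinal peptide, 1.91 ± 0.693 CPM in libraries labelled Batf-deficient and 42.8 ± 5.01 CPM in libraries labelled control (log2 fold change -4.41, SE 0.25, adjusted p = 1.88e-08, edgeR). Vamp2, Vamp8 and Snap23, membrane fusion proteins of many cells, were those that did not pass with TMM. With the lymphocyte panel all 10 were lower, as were 11 of the 12 regulators.

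Genes of the general secretory endoplasmic reticulum moved in both directions. Of 24 tested genes for translocation and folding, 5 were lower, 10 higher and 9 did not pass, with a median log2 fold change of 0.04. P4hb, a protein disulfide isomerase, averaged 342 ± 12.5 CPM in the libraries labelled Batf-deficient and 1138 ± 26.8 CPM in those labelled control (log2 fold change -1.74, SE 0.08, adjusted p = 4.62e-09, edgeR). Hspa5, the chaperone BiP, averaged 1494 ± 31.1 CPM in libraries labelled Batf-deficient and 651 ± 18.9 CPM in libraries labelled control (log2 fold change 1.20, SE 0.08, adjusted p = 8.62e-08, edgeR), and Sec11c, a signal peptidase subunit, 419 ± 3.76 CPM in libraries labelled Batf-deficient and 132 ± 10.2 CPM in libraries labelled control (log2 fold change 1.66, SE 0.10, adjusted p = 2.05e-08, edgeR). These calls depend on scaling: with the lymphocyte panel all 24 were lower, with a median of -2.53, and Hspa5 and Sec11c changed sign, to -1.37 and -0.91.

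Markers of other cells moved with the same contrast. Of the 20 markers of intestinal epithelium 19 were lower, and they summed to 0.0903 to 0.102% of the counts of the libraries labelled Batf-deficient and 1.78 to 1.96% of those labelled control. Among 10 markers of plasma cells, 8 were lower and Sdc1 and Prdm1 higher (at -0.85 and -1.46 with the panel), with sums of 0.103 to 0.116% in libraries labelled Batf-deficient and 1.47 to 1.49% in libraries labelled control. Of 9 markers of pancreatic duct 8 were lower and Car2 was higher with TMM, but not past the threshold with the panel. The 9 summed to 0.117 to 0.120% in libraries labelled Batf-deficient and 0.227 to 0.237% in libraries labelled control. Most of the sum in the libraries labelled Batf-deficient was Car2, a carbonic anhydrase, at 0.108 to 0.110% in libraries labelled Batf-deficient and 0.0202 to 0.0233% in libraries labelled control. The other 8 summed to 0.00834 to 0.0104% in libraries labelled Batf-deficient and 0.206 to 0.217% in libraries labelled control. Krt19 and Sox9, duct markers that intestinal epithelium also expresses, averaged 65.4 ± 6.48 and 2.26 ± 0.407 CPM in libraries labelled Batf-deficient and 1467 ± 87.5 and 111 ± 11.4 CPM in libraries labelled control. Of 10 stomach markers, 5 were tested and all 5 were lower, with sums of 0.000340 to 0.000475% in libraries labelled Batf-deficient and 0.0744 to 0.0882% in libraries labelled control. Pgc, pepsinogen C, averaged 4.43 ± 0.577 CPM in libraries labelled Batf-deficient and 646 ± 62.5 CPM in libraries labelled control (log2 fold change -7.18, SE 0.15, adjusted p = 7.19e-12, edgeR), and Gkn1, a gastrokine, was at 0 in libraries labelled Batf-deficient against 26.8 ± 0.663 CPM in libraries labelled control (at least 239-fold lower; adjusted p = 3.12e-08, edgeR).

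Islet markers took a small share of the counts in both groups. Among 12 islet markers, 5 were measured, with sums of 0.000401 to 0.000455% in the libraries labelled Batf-deficient and 0.00343 to 0.00467% in those labelled control. Gcg and Sst, which gut endocrine cells also make, averaged 4.48 ± 0.396 CPM in libraries labelled Batf-deficient and 14.2 ± 4.77 CPM in libraries labelled control for Gcg, and 0.0472 ± 0.0818 CPM in libraries labelled Batf-deficient and 21.6 ± 2.21 CPM in libraries labelled control for Sst. Ins1, Ins2 and Ppy were not among the 25075 gene symbols counted. Iapp, the peptide that beta cells release with insulin, had 0, 0 and 0 counts in libraries labelled Batf-deficient against 0, 5 and 12 in libraries labelled control. Of 11 salivary gland markers 1 was measured, Aqp5, with 2.39 ± 0.590 CPM in libraries labelled Batf-deficient and 27.7 ± 2.40 CPM in libraries labelled control. The part of these other cells in the acinar result was not tested.

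**Figure D4:**
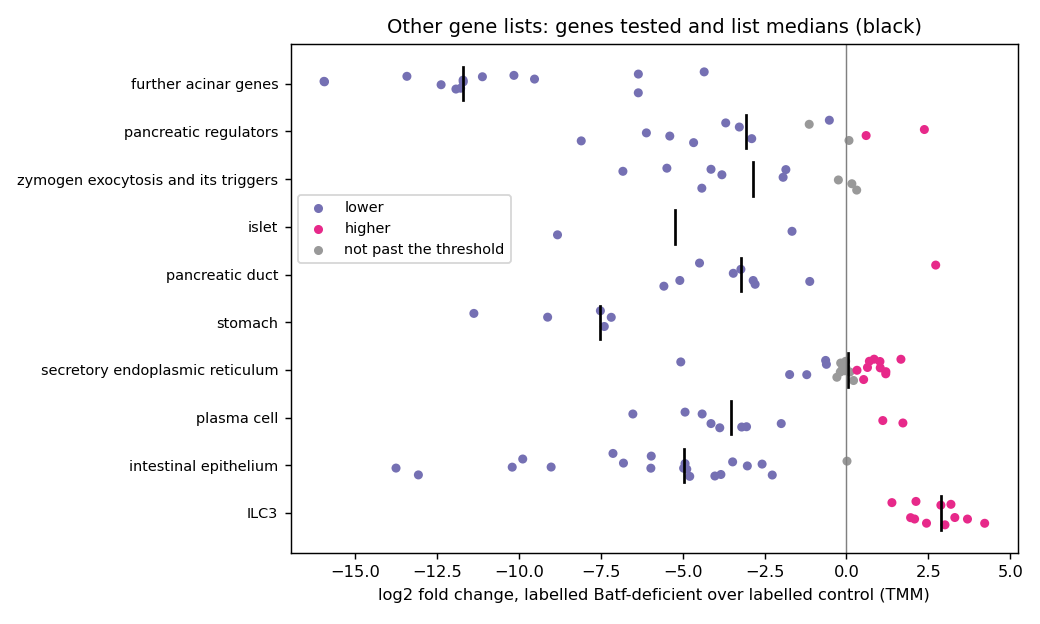
Log2 fold change (labelled Batf-deficient over labelled control, edgeR with TMM) of each tested gene of 10 lists that hold no member of the 36, 1 row per list, with black bars at the list medians and colours for genes called lower, called higher or not past an adjusted p of 0.05. The further acinar genes have a fitted median of -11.70, the intestinal epithelium of -4.95, the secretory endoplasmic reticulum of 0.04 and the ILC3 markers of 2.88.

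The ILC3 markers went the other way. All 11 were higher with TMM, with a median log2 fold change of 2.88, although some of them, among them Il7r, Ahr, Gata3 and Il1r1, were below 0 with the lymphocyte panel. Among the 11 was Thy1 (CD90), the antigen of the sort, which averaged 452 ± 39.1 CPM in the libraries labelled Batf-deficient and 45.5 ± 5.28 CPM in those labelled control (log2 fold change 3.31, SE 0.12, adjusted p = 3.93e-10, edgeR). Il22 averaged 5408 ± 279 CPM in libraries labelled Batf-deficient and 593 ± 45.7 CPM in libraries labelled control (log2 fold change 3.19, SE 0.09, adjusted p = 6.73e-11, edgeR), and Kit, the stem cell factor receptor, 659 ± 12.7 CPM in libraries labelled Batf-deficient and 82.1 ± 8.34 CPM in libraries labelled control (log2 fold change 3.01, SE 0.10, adjusted p = 2.46e-10, edgeR). With the lymphocyte panel the median of the list was 0.30. That scaling shifts the median of all genes by -2.57 on the log2 scale, and library totals shift it by -0.38, so neither could bring genes that were already lower back up.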

How the data were processed

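Values were counts per gene symbol in 6 libraries, deposited by the authors as 1 table. Per the submitters' processing notes the build was mm10. No source used here names the aligner, the counter, its annotation or its use of strand. All 6 count columns were mapped by name, and 24623 of 25075 symbols (98.2%) were in a table of mouse gene names. Gene positions, lengths and 50-base words came from GENCODE M21 and promoters from RefSeq.

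The 36 members and the other gene lists were chosen with earlier results of these data known. Genes named were all members and, from each other list, up to 3 past the threshold with the lowest p, besides list members needed beside a member. Zg16 was named as well because it held most of the sum of its list in the libraries labelled Batf-deficient. From the plasma cell, epithelium and panel lists not every gene so named is described: Igha, Iglc1, Igkc, Krt8, Fabp1, Apoa1, Cd96 and Il2rg were called, and are covered by their lists' counts.

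Counts were fitted in R 4.3.3 with edgeR 4.0.16 (filterByExpr by group, minimum count 10, TMM, glmQLFit with robust estimation, glmQLFTest, group as the only term). Adjustment was by Benjamini-Hochberg over 15261 genes, with a threshold of 0.05. The procedure was tested on simulated data. Alternatives used DESeq2 1.42.0, limma 3.58.1 (voom), other scalings and filters, left-out libraries and a replicate block. Libraries labelled Batf-deficient 1 and 2 differed by a mean chi-square of 2.36 per gene, above sampling noise (1). Each of them differed from library 3 of that label by 16.5 and 19.8, and control libraries differed by 14.8 to 24.2. This value grows with depth. With libraries 1 and 2 averaged, 5202 genes were called lower and 3665 higher. Libraries 1 and 2 were kept as separate samples. Whether they came from separate animals is not stated beyond the words biological replicates, so p-values measure the spread between these libraries.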

Additional observations from a re-analysis of the deposited data

How the results depend on the processing

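Of the results recomputed under alternatives, 1213 stayed close to their main value, 7 moved, 5 reversed and 1 lost the threshold. These include the single acinar genes, whose calls the choice of the genes fixed and whose stability therefore says nothing. Genes called lower over the whole table numbered 5209, and 13498 with scaling to the lymphocyte panel. Genes called higher numbered 4612, and 3052 with library totals and 252 with the panel. In the secretory endoplasmic reticulum list, 5 genes were lower, and 11 with library totals and 24 with the panel. Log2 fold changes reversed with the panel for Batf (-1.28), Hspa5 (-1.37), Il2rg (-0.14), Rbpj (-0.20) and Sec11c (-0.91), and Car2 at 0.15 lost the threshold. The panel holds lymphocyte genes, so its scaling sets them near 0 by construction. The summed acinar share moved to 0.00207% in the libraries labelled Batf-deficient and 10.8% in those labelled control with TMM-scaled sizes. Leaving out 1 library gave 5149 to 5451 genes lower, 3603 to 4705 higher, and summed shares of 0.00174 to 0.00185% in the libraries labelled Batf-deficient and 12.2 to 12.4% in those labelled control.

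No clear pairing by replicate number was seen. Deviations of same-numbered libraries correlated at 0.00449, 0.0209 and 0.0304, and not every library was most like its own number. With 3 libraries per group these correlations cannot exclude a pairing. With the replicate block 5091 genes were lower and 4603 higher.

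Depth limits the members at 0 to 5 counts, where the fold is a bound or has a wide counting interval.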

Other observations

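The neighbours of the acinar genes in the digestive clusters showed the same sides. Within the trypsin cluster of chromosome 6, genes that were not members were also at 0 in each library labelled Batf-deficient. Try10 had 0, 0 and 0 counts there, against 1191, 2119 and 1909 in those labelled control. Gm10334 had 0 in each against 468, 1027 and 1120, and Gm5771 had 0 in each against 270, 479 and 927. Try10, Gm10334 and Gm5771 are already counted among the further acinar genes above. The annotated pseudogenes Gm5409 and Gm37301 had 0 in each against 6, 20 and 22 and against 2, 7 and 3. In the amylase cluster of chromosome 3 the pseudogene Amy2-ps1 had 0 in each against 9, 13 and 13. Rnpc3, a splicing factor gene, overlaps the start of Amy1 and is no digestive gene. It had 48, 53 and 67 counts in the libraries labelled Batf-deficient, against 91, 210 and 187 in those labelled control. These counts are not scaled to library size. Reads of copies can be given to each other, as for the members of these clusters.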
